A study of Mus musculus with 12 samples.

Results

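Myelin-enriched membranes of old mice were compared with those of mature adults, to find which RNAs in the fraction differed between 6 and 24 months of age. RNA came from the light-weight membrane fraction that floats above heavier material when homogenised brain is spun through sucrose, taken from male c57Bl6/N mice, labelled WT (wild-type) at every age, with no treatment given. Of the 12 RNA-seq libraries of the series, which also sampled postnatal days 18 and 75, the comparison used 3 libraries at 6 months against 3 at 24 months. A gene was a member if its normalized read counts averaged 10 or more across the 12 libraries, which gave 14634 genes of the 21937 listed. The fraction is enriched for myelin but not pure, so it also held RNA of microglia, astrocytes and neurons, and in such bulk material fewer cells of a type and less RNA per cell cannot be told apart. The study describes the 6-month libraries as coming from individual brains. Whether the same held at 24 months was not stated in the sources used here, so the p-values measure the spread between libraries.

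Myelin is the membrane sheath that oligodendrocytes wrap around axons. Several of its proteins are long-lived, and some mRNAs, Mbp first among them, are carried into the sheath and translated there. In old white matter, microglia are known to take up myelin debris and to switch to an activated state marked by lectins, cathepsins and lipid-handling genes. Complement tags material for this uptake, MHC class I presents peptides at the cell surface, and interferon induces a set of antiviral genes. The genes below are ordered by these roles, then by oligodendrocytes, astrocytes, neurons and general cell machinery.

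A part of the interferon genes share a short promoter element, the interferon-stimulated response element. Its letters (GAAA, any 2 bases, GAAA) were searched on both strands in the 250 bases before each gene's start (RefSeq, GRCm38.p6). It was present in 40.7% of the 54 interferon-stimulated genes with a promoter sequence, against 3.02% of all tested genes with one. Of the 13 MHC class I genes with a promoter sequence, the list of B2m below, 15.4% had it. The sites of the following genes are printed because they carry this shared sequence, 5′ to 3′ along the strand of the gene, with the element in capitals in either orientation, and they include 2 genes that were not called changed.
Cxcl10 (chr5:92349083-92349112, minus strand): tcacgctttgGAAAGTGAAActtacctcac
Isg15 (chr4:156200865-156200894, minus strand): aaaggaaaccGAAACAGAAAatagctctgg
Bst2 (chr8:71537577-71537606, minus strand): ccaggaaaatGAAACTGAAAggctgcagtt
B2m (chr2:122147538-122147567, plus strand): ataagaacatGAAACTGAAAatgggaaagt
Ifit1 (chr19:34640794-34640823, plus strand): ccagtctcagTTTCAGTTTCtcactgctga
Irgm1 (chr11:48871425-48871454, minus strand): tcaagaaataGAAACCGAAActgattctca
Rsad2 (chr12:26456553-26456582, minus strand): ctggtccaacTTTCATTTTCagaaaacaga

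Each of the 6 libraries held between 21565600 and 27214385 reads on genes, and log2 values of libraries correlated across genes at r = 0.993 to 0.994 within 6 months, 0.991 to 0.995 within 24 months and 0.980 to 0.989 between the ages. A gene was called changed at a limma adjusted p under 0.1 (Benjamini-Hochberg over the 14634 genes). This called 29.3% of genes, 16.6% higher and 12.7% lower at 24 months, and 1.68% changed over 2-fold as well. The counts of all lists below are to be read beside these shares. The libraries of the 2 ages did not overlap in 43.5% of genes, so a lack of overlap alone was common. A gene near the filter could pass it through the libraries of 1 age alone (a mean under 10 over the other 9), and such a gene had to differ. This held for 94 genes through 24 months and 47 through 6 months, and their tests carry no weight of their own. The split between directions depended on scaling, with 2435 genes higher and 1852 lower as deposited, 1394 and 1614 with libraries scaled to the same total, 2079 and 2183 after quantile normalization, and 1763 and 2294 once the trend on exon length and GC content was removed from each library. The 6-month libraries, R1 most, held less signal from genes with short merged exons than those of 24 months, and the median log2 change fell from 0.26 in the shortest 10% of genes to -0.10 in the longest. Values after removal of this trend are given beside several of the groups of short genes.

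**Figure D1:**
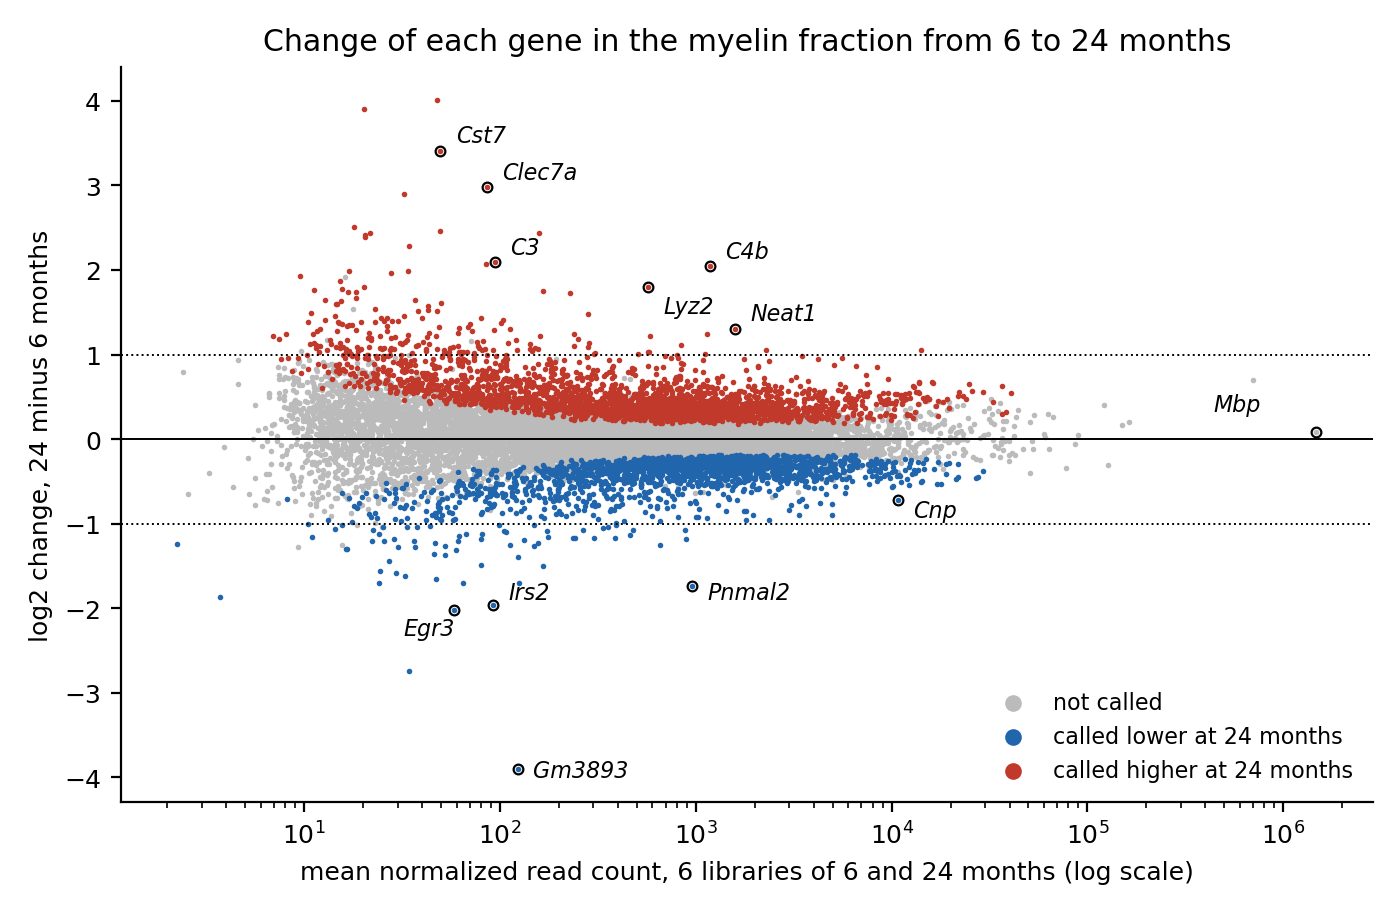
Log2 change from 6 to 24 months of each of the 14634 tested genes (vertical axis) against its mean normalized read count over the 6 libraries (horizontal log axis). Red and blue points are genes called higher and lower at 24 months, grey points were not called, and dotted lines mark 2-fold. Changes over 2-fold lie mostly at low counts, and Mbp, the highest gene, did not pass the test.

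Genes of activated microglia rose in most of the tested members. Of 34 listed genes 30 were tested, and 24 of them were called higher and 0 lower, 19 of them over 2-fold, with a median log2 change of 1.20 against 0.03 over all genes. Of these risers 6 passed the filter through their 24-month level alone (Ccl4, Ch25h, Cst7, Itgax, Lilrb3 and Lilrb4), and 18 of the other 24 members were called higher. The count over 2-fold and the median above include these 6 genes, which had to differ. Cst7, an inhibitor of cathepsins, held 10.6, 6.21 and 6.81 at 6 months and 91.1, 89.7 and 92.6 at 24 months, a log2 change of 3.41 ± 0.39 (SE, limma adjusted p = 0.00016). Its 24-month libraries were nearly equal. Clec7a, a lectin receptor for beta-glucans (chr6:129411611-129422790, minus strand, mm9), changed by 2.98 ± 0.29 on the log2 scale and had means of 10.5 at P18 and 12.1 at P75, below those of 24 months as at 6 months. Itgax, the integrin alpha X chain of CD11c, changed by 2.44 ± 0.44 (SE, limma adjusted p = 0.0023).

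Secreted and phagocytic products of these cells moved with the receptors. Lgals3, the galectin of phagocytic cells, was measured at 21.9, 44.4 and 32.1 at 6 months and 123, 118 and 171 at 24 months, and all old libraries lay above all young ones. Lyz2, the lysozyme of macrophages (chr10:116714390-116719377, minus strand), rose from 286, 243 and 229 to 699, 870.4 and 1099, a log2 change of 1.79 ± 0.17 (SE, limma adjusted p = 2.7e-05). The neighbouring near-identical Lyz1 changed by 2.43 ± 0.23, and reads shared by the copies may have been assigned to either. Chemokine genes Ccl3 and Ccl4 rose by 1.99 ± 0.28 and 2.42 ± 0.45, and Ch25h, which makes 25-hydroxycholesterol, by 1.63 ± 0.47, a call that was lost without the library 6 months R2 (adjusted p = 0.102). Cd52 was called higher at 1.75 ± 0.21, Cd68, a lysosomal marker of phagocytes, at 1.18 ± 0.14 and Gpnmb at 1.22 ± 0.27.

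The receptor gene Trem2 and its adaptor gene Tyrobp also rose. Trem2, a lipid-sensing receptor, held 364, 397 and 378 at 6 months and 686, 778 and 865 at 24 months. Its adaptor Tyrobp held 593, 698 and 739.6 at 6 months and 1424, 1618 and 1754 at 24 months. Their log2 changes were 1.03 ± 0.10 (SE, limma adjusted p = 4.1e-05) and 1.24 ± 0.12 (SE, limma adjusted p = 3.6e-05), and neither gene's groups overlapped. Lpl, a lipoprotein lipase, rose by 0.71 ± 0.12 and Spp1, osteopontin, by 0.70 ± 0.09. Apoe, the lipid carrier that microglia and astrocytes make, was not called (0.16 ± 0.14 (SE, limma adjusted p = 0.44)), nor was the receptor Axl (-0.03 ± 0.09 (SE, limma adjusted p = 0.87)). The count of called activation genes lay between 22 and 25 with each library left out in turn and was 23 after removal of the length trend. The members counted here include the 6 genes that passed the filter only through their 24-month level and had to differ. Among genes with a mean of at least 100 the count was 9 of 15.

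Genes that mark resting microglia changed less. Of the 30 tested, 13 were called higher and 1 lower, with a median log2 change of 0.30. P2ry12, the purinergic receptor of surveying microglia, had 1231, 1086 and 1091 at 6 months and 1383, 1308 and 1331 at 24 months and was not called (limma adjusted p = 0.28), although its groups did not overlap. Tmem119 held 534, 436 and 372 at 6 months and 509, 497 and 519 at 24 months. Cx3cr1, the fractalkine receptor, held 776, 593 and 651 at 6 months and 661, 723 and 784 at 24 months, and the ages overlapped in both genes. Csf1r, the receptor for the growth factor microglia depend on, gave a log2 change of 0.00 ± 0.10 (SE, limma adjusted p = 0.99). The member called lower was the transcription factor Mef2c (-0.33 ± 0.08 (SE, limma adjusted p = 0.011)). Called higher were, among others, the lysosomal protease gene Ctss (0.95 ± 0.12) and the calcium-binding Aif1 (0.77 ± 0.13). Aif1 averaged 284 at P18 and 388 at P75, beside 322 at 24 months.

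**Figure D2:**
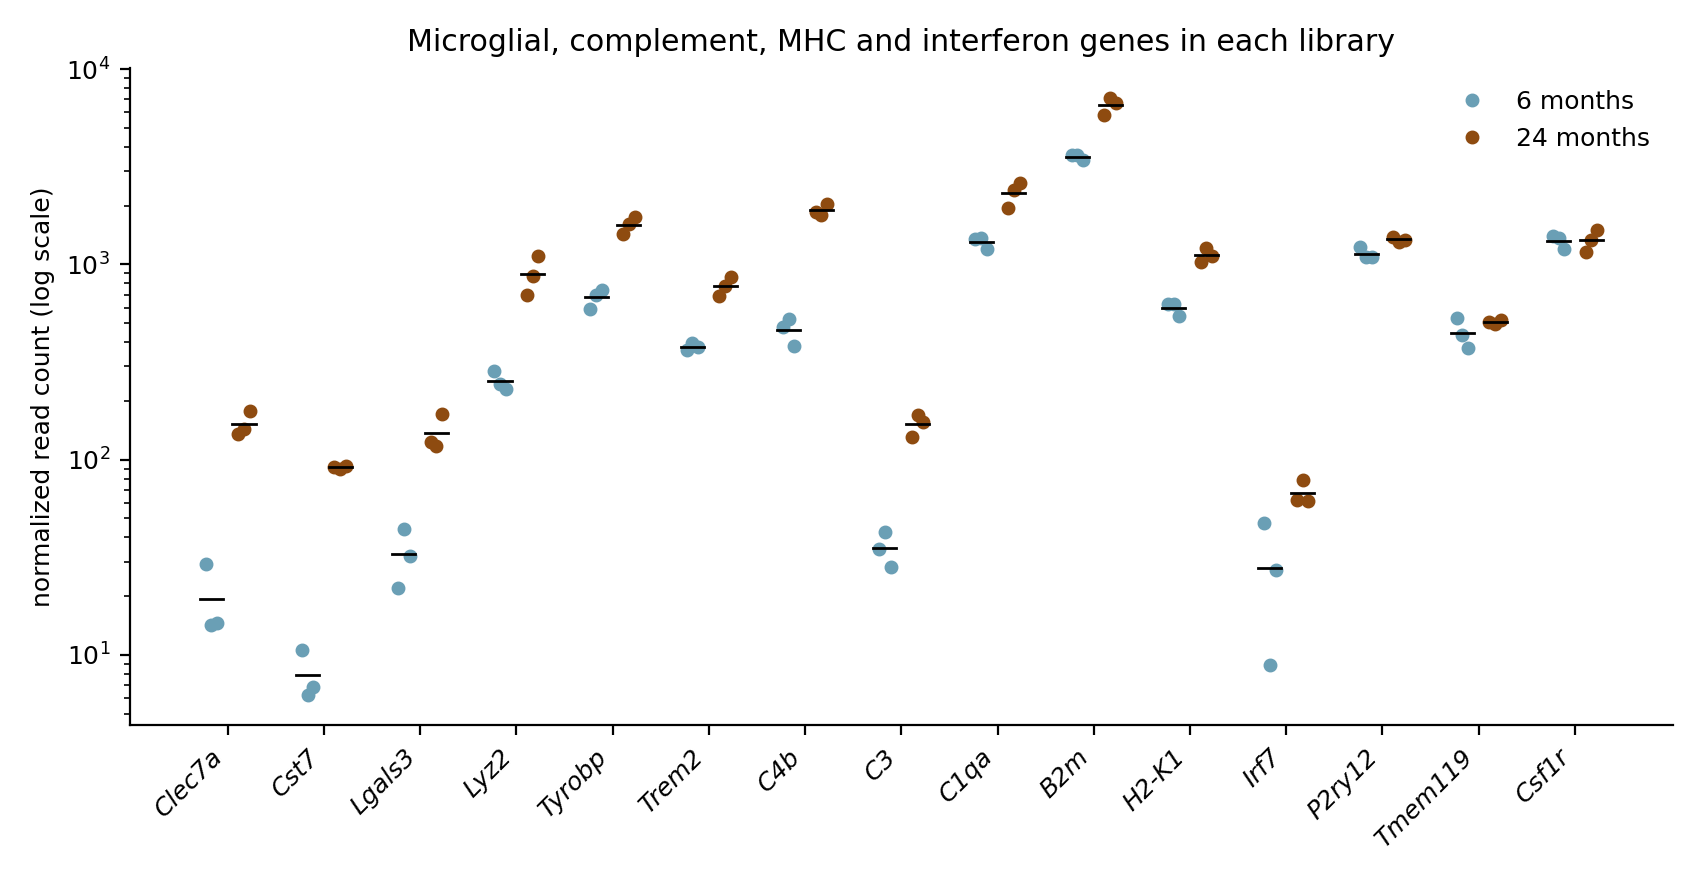
Normalized read counts on a log axis for 15 microglial, complement, MHC and interferon genes in each library, 3 points for 6 months and 3 for 24 months, with black bars for the means. Points of the 2 ages are apart for the activation genes, complement and MHC class I, and overlap for Tmem119 and Csf1r. They are also apart for P2ry12, which was not called. The ages did not overlap in 43.5% of all tested genes, and Cst7 passed the filter only through its 24-month level.

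Complement components rose in the classical pathway and in its receptors. Of 22 tested genes 17 were called higher and 1 lower, with a median log2 change of 0.85. Of the risers 1, Itgax, passed the filter only through its 24-month level, and 16 of the other 21 members were called higher. C4b, which is cleaved by activated C1, held 479, 523 and 380.5 at 6 months and 1851, 1792 and 2038 at 24 months (chr17:34865325-34880827, minus strand, mm9), a 4.11-fold difference of means and a log2 change of 2.05 ± 0.17 (SE, limma adjusted p = 1.9e-05). Its means at P18 and P75 were 163 and 354. The 3 chains of C1q, which starts the pathway, rose by 0.82 ± 0.10 for C1qa, 0.92 ± 0.12 for C1qb and 0.94 ± 0.10 for C1qc. C3, the central component, changed by 2.09 ± 0.26.

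Receptors and regulators of complement followed. C3ar1, the receptor for the C3a fragment, held 60.9, 50.6 and 49.6 at 6 months and 114, 143 and 142 at 24 months, a log2 change of 1.29 ± 0.18 (SE, limma adjusted p = 0.00044) without overlap. C5ar1, the C5a receptor, was called at 0.99 ± 0.34 (SE, limma adjusted p = 0.049). The one member called lower was Masp1, a protease of the lectin pathway, at -0.61 ± 0.23 (SE, limma adjusted p = 0.076). The calls of C5ar1 and Masp1 were lost without 6 months R2 or 24 months R2, that of C5ar1 also without 6 months R3 and that of Masp1 without 6 months R1 or 24 months R1, with adjusted p up to 0.239 and 0.256. The whole group counted 9 higher without 24 months R2, 11 without 6 months R1 or 6 months R2 and up to 15 with another library left out, and 13 without the length trend.

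Innate receptors and chemokines of myeloid cells rose as well. Of 17 tested innate receptor genes 8 were called higher and 0 lower, with a median log2 change of 0.62. Fcgr4, a riser, and Tlr1, not called, passed the filter only through their 24-month level, and 7 of the other 15 were called higher. The inhibitory Fc receptor gene Fcgr2b held 115, 92.3 and 92.5 at 6 months and 172, 257 and 207 at 24 months, a log2 change of 1.07 ± 0.17 (SE, limma adjusted p = 0.0012), and Tlr7, a sensor of single-stranded RNA, rose by 0.82 ± 0.21 (SE, limma adjusted p = 0.016). Cd48 and Cd84, surface molecules of leukocytes, changed by 1.26 ± 0.30 and 0.76 ± 0.16, and each of these 4 calls held with every library left out. Of 21 tested cytokine and chemokine genes 10 were called higher and 0 lower, with a median of 0.39. The risers Ccl4 and Ccl8 passed the filter only through their 24-month level, and 8 of the other 19 were called higher. Ccl12 held 29.2, 16.9 and 16.5 at 6 months and 55.5, 95.2 and 45.4 at 24 months and Ccl6 62.6, 97.6 and 79.8 at 6 months and 149.6, 172 and 175 at 24 months. For Ccl8, which passed the filter through its 24-month level alone, the values were 6.5, 6.21 and 3.89 at 6 months and 35.7, 38.9 and 10.2 at 24 months. The 2 ages were apart in each of the 3, and the library 24 months R3 was the lowest of its age for Ccl12 and Ccl8. A further 17 of the 38 listed cytokine genes lay under the filter.

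MHC class I genes rose together with the machinery that loads them. Of 16 tested genes 10 were called higher and 0 lower, with a median of 0.67. Of the risers 1, Nlrc5, passed the filter only through its 24-month level, and 9 of the other 15 members were called higher. B2m, the shared light chain of class I molecules, held 3609.6, 3635 and 3404 at 6 months and 5827, 7146 and 6714 at 24 months, a log2 change of 0.88 ± 0.08 (SE, limma adjusted p = 3.0e-05), and every 24-month library exceeded every 6-month one. The heavy chains H2-K1 and H2-D1, whose reads may be shared with other class I copies, rose by 0.89 ± 0.09 and 0.62 ± 0.12. The peptide transporter Tap1 rose by 1.06 ± 0.28, and the immunoproteasome subunits Psmb8 and Psmb9 by 1.05 ± 0.16 and 1.13 ± 0.28, where Tap1 and Psmb9 overlap in the genome. The class I activator Nlrc5 was low and passed the filter through its 24-month level alone, at 8.94, 7.1 and 3.89 at 6 months and 19.8, 22.7 and 13.9 at 24 months, and its call (1.41 ± 0.49 (SE, limma adjusted p = 0.053)) was lost when 6 months R3, 24 months R1 or 24 months R2 was left out (adjusted p up to 0.16).

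MHC class II was called higher in 5 of 10 tested genes and lower in 0. Cd74, the invariant chain, rose by 0.91 ± 0.20 (SE, limma adjusted p = 0.0071), from 156, 95.9 and 145 to 202, 305 and 235. H2-Ab1 was called at 0.85 ± 0.23 (SE, limma adjusted p = 0.02) and the overlapping H2-Aa was not (0.63 ± 0.29 (SE, limma adjusted p = 0.13)). H2-Aa was called with a pseudocount of 10, with only the libraries of 6 and 24 months, with a replicate block, and by edgeR and DESeq2. The other 3 risers were H2-Eb1 (0.58), H2-DMb1 (0.67) and the co-stimulatory Cd86 (0.69). In H2-Aa and H2-Ab1 the library 24 months R2 was the highest, and without it the calls of H2-Ab1, H2-Eb1 and H2-DMb1 were lost. H2-Eb1 was also lost without 6 months R1, 6 months R2 or 24 months R3 and H2-DMb1 without 6 months R1 (adjusted p up to 0.109 for H2-Ab1, 0.246 for H2-Eb1 and 0.165 for H2-DMb1). The class II count was 2 without 24 months R2, 3 without 6 months R1 and 3 without the length trend.

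Interferon-stimulated genes were called higher in 34 of 68 tested and lower in 2, with a median log2 change of 0.45. Irf7, a master regulator of the response, held 47.1, 8.88 and 27.2 at 6 months and 62.4, 78.9 and 61.1 at 24 months, and all old libraries lay above the young ones, which were themselves spread. Cxcl10, a chemokine induced by interferon, went from 39, 10.7 and 20.4 to 52.5, 82.2 and 52.8, a log2 change of 1.53 ± 0.43 (SE, limma adjusted p = 0.022). Isg15, a ubiquitin-like modifier, was called at 1.03 ± 0.26 (SE, limma adjusted p = 0.013) and the tetherin gene Bst2 at 0.94 ± 0.17 (SE, limma adjusted p = 0.0025). Ifi27l2a rose by 1.41 ± 0.27 and the nucleic acid sensor Ifi204 by 1.28 ± 0.27. Among 6-month libraries R1 was the highest for Cxcl10, Irf7, Usp18 and Ifit1, with 50.4, 19.5 and 19.5 for Usp18 and 145, 74.6 and 74.9 for Ifit1.

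The response did not extend to every member. Called lower were the RNA editing enzyme gene Adar (-0.27) and Znfx1 (-0.24), and neither call held without 6 months R1, 6 months R2, 24 months R1 or 24 months R2, nor that of Znfx1 without 24 months R3 (adjusted p up to 0.196 and 0.146). Rsad2, an antiviral radical enzyme, was not called at 0.30 ± 0.34 (SE, limma adjusted p = 0.57), and the interferon-induced GTPase gene Irgm1 gave 0.30 ± 0.14 (SE, limma adjusted p = 0.13). The response element printed above for both genes was found at 11 of 28 interferon genes called higher with a promoter (39.3%) and at 11 of 24 that were not called (45.8%), so its presence did not separate the sets by count. The calls of Cxcl10, Usp18 and Ifit1 were lost without 6 months R2 (adjusted p = 0.108, 0.101 and 0.114), and the count of risers lay between 20 and 33 with 1 library left out, at 20 without 6 months R2 and 21 without 24 months R2. After removal of the length trend 24 members were called higher, and Isg15 was no longer called (limma adjusted p = 0.11).

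Markers of blood-borne cells were low, and some rose. Of 18 listed monocyte and neutrophil genes 9 were tested. Of these 7 were called higher, 5 without 24 months R2 and 6 without the length trend. Their median was 0.83, or 0.48 without that trend. The monocyte genes Ccr2 and Ly6c2 lay under the filter, at no more than 14.1 and 5.41 at 24 months. Among the risers, Ly6c1 is also in the endothelial list and Lcn2 in the reactive astrocyte list. S100a8, a neutrophil calcium-binding protein, held 6.5, 6.21 and 2.92 at 6 months and 50.5, 114 and 13.9 at 24 months. Its partner S100a9 held 15.4, 12.4 and 9.73 at 6 months and 70.3, 151 and 35.2 at 24 months. The P75 means of S100a8 and S100a9 were 44.6 and 71.3, beside 59.3 and 85.6 at 24 months. Lcn2, an iron-siderophore binder made by neutrophils and reactive astrocytes, held 4.87, 0.89 and 3.89 at 6 months and 25.8, 211 and 38.9 at 24 months, and the library 24 months R2 was the highest in each of these genes. Their log2 changes were 2.90 ± 0.67, 2.46 ± 0.46 and 4.01 ± 0.72, and the calls held without that library (adjusted p at most 0.0536, 0.0185 and 0.0153 over all left-out libraries). Without the length trend S100a8 changed by 2.37 and kept its call (limma adjusted p = 0.021). Lcn2 passed the filter through its 24-month level alone, and 6 of the other 8 tested monocyte and neutrophil genes were called higher. The defining T cell genes Cd3e, Cd3g, Cd3d and Cd8a had means under 10 and were not tested, with values of 0 to 2.44 at 6 months and 1.08 to 7.93 at 24 months. Of 6 tested T and NK cell genes 2 were called higher, Cd7 (0.84) and the kinase gene Lck (0.66). Of 2 tested B and plasma cell genes both were, Derl3 (0.89) and Igj (0.71). The calls were lost with any library but 6 months R3 left out for Cd7, without 6 months R2, 6 months R3, 24 months R2 or 24 months R3 for Lck and with any 1 library left out for Igj (adjusted p up to 0.331, 0.216 and 0.296). With no filter on low values 11 of the 35 listed T and NK cell genes in the table were called higher, Cd7 no longer among them. Of the border macrophage markers, Cd163 rose (0.77 ± 0.21 (SE, limma adjusted p = 0.018)), while Mrc1 (0.43 ± 0.19 (SE, limma adjusted p = 0.12)) and Lyve1 (-0.06 ± 0.21 (SE, limma adjusted p = 0.87)) were not called. Stab1 was called at 0.42 but not without 6 months R1, 6 months R3, 24 months R2 or 24 months R3 (adjusted p up to 0.191). The part of these cells in the immune groups was not tested.

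Of 22 tested astrocyte identity genes 5 were called higher and 2 lower, close to the share over all genes, with a median of -0.03. The risers that held with every library left out were the connexin Gjb6 (0.47), the laminin receptor chain Itga7 (0.59) and the claudin Cldn10 (0.38). The other risers were Ntsr2 and Agt, called at 0.28 and 0.37 but not with any 1 library left out for Ntsr2 or without 6 months R1, 6 months R3, 24 months R1 or 24 months R2 for Agt (adjusted p up to 0.321 and 0.202). Called lower were Sox9 (-0.38), lost without 24 months R1 or 24 months R2, and Acsbg1 (-0.25), lost with any library but 6 months R3 left out (adjusted p up to 0.156 and 0.315). Aqp4, the water channel of astrocyte endfeet, gave -0.07 ± 0.25 (SE, limma adjusted p = 0.87), Aldh1l1 -0.18 ± 0.09 (SE, limma adjusted p = 0.15) and the glutamate transporter Slc1a3 -0.16 ± 0.11 (SE, limma adjusted p = 0.33). Of 29 reactive genes 21 were called higher and 1, the matrix gene Tnc (-0.83 ± 0.22), lower, with a median of 0.65. The reactive list shares C3, Cxcl10, Psmb8 and Lcn2 with the immune lists. Of its risers Lcn2 passed the filter only through its 24-month level, and 20 of the other 28 members were called higher.

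Gfap, the intermediate filament of astrocytes, held 5654, 7255 and 4665 at 6 months and 9039.7, 8344 and 9865 at 24 months, a log2 change of 0.65 ± 0.20 (SE, limma adjusted p = 0.032), beside a mean of 10953 at P18. Leaving out 6 months R3 ended this call (adjusted p = 0.117). Serpina3n, a secreted protease inhibitor, held 609, 504 and 477 at 6 months and 1022, 1055 and 1364 at 24 months, a rise of 1.11 ± 0.14 (SE, limma adjusted p = 0.00028) with no overlap. The oncostatin M receptor Osmr rose from 43.9, 36.4 and 35 to 80.2, 114 and 102, and Aspg, an asparaginase, from 30.1, 33.7 and 40.9 to 96.1, 76.8 and 91.6. Both changed more than 2-fold, by 1.33 ± 0.20 and 1.32 ± 0.24 on the log2 scale. Vim was called at 0.35 ± 0.11 (SE, limma adjusted p = 0.04) and Timp1, an inhibitor of matrix proteases, at 1.43 ± 0.47 (SE, limma adjusted p = 0.044), and both calls were lost without 6 months R1 or 24 months R2, that of Vim also without 6 months R3 (adjusted p up to 0.143 and 0.132). Vim averaged 2507 at P75, above its 24-month mean of 1956.

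Structural genes of myelin were called in both directions. Of 39 tested 4 were called higher and 6 lower, 10.3% and 15.4%, near the shares of all genes. The median was -0.15, and 27 of the 39 had a lower mean log2 value at 24 months. The count called lower was 8 without the length trend and 13 when the fit held only the libraries of 6 and 24 months. Mbp, which joins the membrane layers, held 1114065, 2048136 and 1185829 at 6 months and 1793465, 1476129 and 1213612 at 24 months, with a log2 change of 0.08 ± 0.60 (SE, limma adjusted p = 0.94), and its libraries overlapped fully. Mobp likewise overlapped (0.17 ± 0.31 (SE, limma adjusted p = 0.74)). Mog, on the outer surface of the sheath, gave -0.28 ± 0.13 (SE, limma adjusted p = 0.14) and Mag, which faces the axon, -0.16 ± 0.12 (SE, limma adjusted p = 0.39), both without a call. For Mog every 24-month library lay below every 6-month one, and Mog was called lower with the length trend removed (-0.45, limma adjusted p = 0.025).

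A few myelin genes did pass. Cnp, an enzyme of non-compact myelin that keeps cytoplasmic channels open, held 14197, 14989 and 11111 at 6 months and 8291, 7569.6 and 8444 at 24 months, a fall of 1.66-fold in means and a log2 change of -0.72 ± 0.15 (SE, limma adjusted p = 0.0049). Opalin, a membrane protein of the sheath, held 784, 986 and 807 at 6 months and 693, 572 and 449 at 24 months and changed by -0.60 ± 0.17 (SE, limma adjusted p = 0.021). The tetraspanin Tspan2 (-0.45 ± 0.15 (SE, limma adjusted p = 0.042)) and the deacetylase Sirt2 (-0.36 ± 0.12 (SE, limma adjusted p = 0.04)) were called lower too. Both calls were lost without 6 months R2, that of Tspan2 also without 6 months R1 or 24 months R3 and that of Sirt2 without 24 months R2 (adjusted p up to 0.154 and 0.183). In the other direction, Hapln2, a link protein of the matrix at nodes of Ranvier, rose from 574, 601 and 601 to 996, 958 and 966, a log2 change of 0.72 ± 0.10 (SE, limma adjusted p = 0.00051). Apod, a lipid-binding lipocalin, rose by 0.51 ± 0.15 (SE, limma adjusted p = 0.025) and the tetraspanin Cd9 by 0.34 ± 0.09 (SE, limma adjusted p = 0.015), a call lost with the length trend removed (0.18, limma adjusted p = 0.16). Omg, a myelin inhibitor of neurite growth, was called at 0.23 but not without 6 months R2, 6 months R3, 24 months R2 or 24 months R3 (adjusted p up to 0.182), nor without the length trend. With 1 library left out the count called lower was 2 without 6 months R2, 3 without 6 months R1, 24 months R2 or 24 months R3, and up to 7. Of cholesterol synthesis genes 4 of 23 (17.4%) were called higher and 3 lower, near the shares of all genes. The regulator Srebf2 was lower at -0.55 ± 0.11 (SE, limma adjusted p = 0.0037) and held that call with each library left out. The sterol carrier Stard4 (-0.53) was called lower but not without 6 months R1, 6 months R2, 24 months R2 or 24 months R3 (adjusted p up to 0.147). Sqle, Ebp, Insig1 and Tm7sf2 were called between 0.27 and 0.34, and the 4 calls shrank to 1 without 24 months R1, to 2 without 6 months R2, 24 months R2 or 24 months R3, and to 0 with libraries scaled to the same total.

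Genes of the node of Ranvier, where axons are bare between sheaths, were called higher in 3 of 19 and lower in 2, 15.8% and 10.5%, near the shares of all genes. Scn1a, a sodium channel of fast-spiking neurons, held 4595, 3789 and 4316 at 6 months and 6654, 6961 and 6294 at 24 months, a log2 change of 0.65 ± 0.11 (SE, limma adjusted p = 0.0018) that was called with every library left out, and Hapln2 was the second riser that held. The potassium channels Kcnq3 (-0.33 ± 0.13 (SE, limma adjusted p = 0.09)) and Kcna2 (-0.68 ± 0.25 (SE, limma adjusted p = 0.067)) were called lower. Both calls were lost without 6 months R1, 6 months R2, 24 months R1 or 24 months R2 (adjusted p up to 0.326 and 0.232).

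Genes of newly formed oligodendrocytes were called lower in 7 of 15 tested and higher in 0. The share called lower was 46.7%, against 12.7% over all genes. Gpr17, a receptor of cells committed to differentiate, held 542, 418 and 378 at 6 months and 136, 221 and 321 at 24 months, a log2 change of -1.05 ± 0.22 (SE, limma adjusted p = 0.0054). The long non-coding transcript 9630013A20Rik, known from early differentiation, fell from 34.1, 35.5 and 41.8 to 7.93, 11.9 and 13, and its means were 1362 at P18 and 135 at P75. Enpp6 was called at -0.57 ± 0.19 (SE, limma adjusted p = 0.04) and lost the call without 6 months R1, 6 months R2 or 24 months R1 (adjusted p up to 0.181), and Bmp4 was not called (-0.09 ± 0.17 (SE, limma adjusted p = 0.75)). The list counted 4 called lower without 6 months R1, 6 months R2, 24 months R1 or 24 months R2, at most 6 with another library left out, and 5 of 14 without the length trend.

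Of 16 oligodendrocyte precursor genes 1 was called higher (Pcdh15 at 0.35, a call lost with any 1 library left out, adjusted p up to 0.215) and 3 lower. These were 6.25% and 18.8%, against 16.6% and 12.7% over all genes. The growth factor receptor Pdgfra (-0.12 ± 0.10 (SE, limma adjusted p = 0.4)) and the proteoglycan Cspg4 (0.06 ± 0.15 (SE, limma adjusted p = 0.83)) were not called. The transcription factor Sox4 changed by -0.87 ± 0.19 (SE, limma adjusted p = 0.0062), from 139, 140.2 and 117 to 64.4, 70.3 and 80.5, and Sox10 was called at -0.43 ± 0.14 (SE, limma adjusted p = 0.038) but not without 6 months R2, 24 months R1 or 24 months R2 (adjusted p up to 0.162). Ednrb, an endothelin receptor, was called at -0.57 ± 0.16 (SE, limma adjusted p = 0.024) and lost the call without 24 months R1 (adjusted p = 0.106).

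Of 24 cell cycle genes 8 were called lower and 1 higher. These were 33.3% and 4.17%, against 12.7% and 16.6% over all genes. The count called lower was 4 without 6 months R1 or 24 months R2 and 5 without 6 months R2 or 24 months R1. Top2a, which untangles DNA in dividing cells, held 23.6, 29.3 and 18.5 at 6 months and 12.9, 6.49 and 8.33 at 24 months, a log2 change of -1.30 ± 0.28 (SE, limma adjusted p = 0.006). Mki67, a marker of cycling cells, held 30.9, 17.8 and 22.4 at 6 months and 11.9, 9.73 and 12 at 24 months, a log2 change of -0.98 ± 0.23 (SE, limma adjusted p = 0.0089), and neither gene's ages overlapped. Reads behind both genes were few, and the call of the exception, Ccna2 (0.63 ± 0.20 (SE, limma adjusted p = 0.038)), was lost without 6 months R1 or 24 months R2 (adjusted p up to 0.183).

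**Figure D3:**
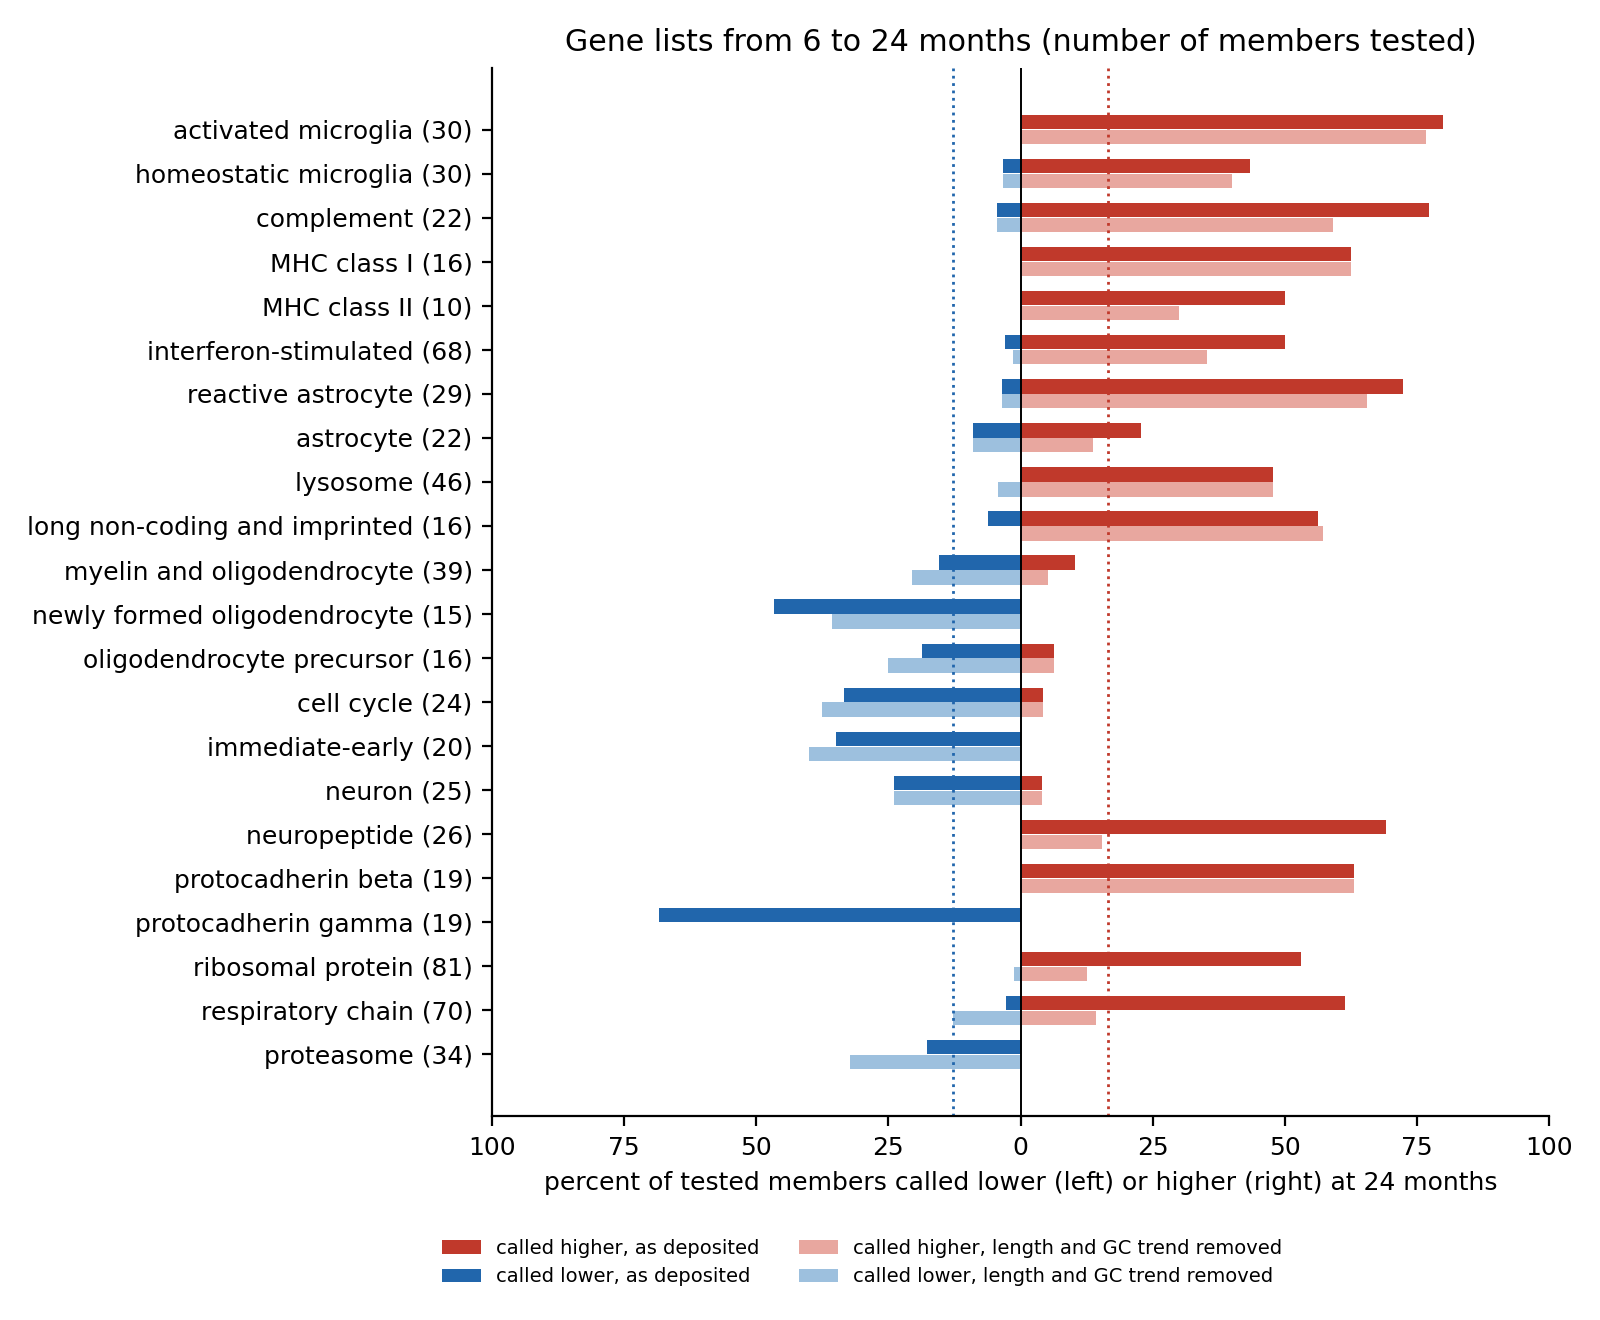
Percent of tested members of each gene list called higher (right) and lower (left) at 24 months, with the number tested in brackets. Dark bars use the deposited values, pale bars those with the trend on exon length and GC content removed, and dotted lines mark the 16.6% and 12.7% called over all genes. The immune bars stay long under both, while those of neuropeptide, ribosomal and respiratory chain genes shorten. Protocadherin gamma has no pale bar because 1 of 19 members had a length.

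Immediate-early genes, which neurons switch on within minutes of activity, were called lower in 7 of 20 tested and higher in 0. The share called lower was 35%, against 12.7% over all genes. Of the 7, Nr4a3 passed the filter only through its 6-month level, and 6 of the other 19 members were called lower. Nr4a3, a nuclear receptor, held 72.3, 54.1 and 52.5 at 6 months and 6.93, 13 and 5.55 at 24 months, a log2 change of -2.74 ± 0.55 (SE, limma adjusted p = 0.0043), and passed the filter through its 6-month level alone. Egr3, a zinc finger factor, held 103, 84.3 and 86.6 at 6 months and 10.9, 22.7 and 40.7 at 24 months, a change of -2.02 ± 0.40 (SE, limma adjusted p = 0.0042). Egr2 held 224, 236 and 262 at 6 months and 76.3, 123 and 131 at 24 months, a change of -1.15 ± 0.24 (SE, limma adjusted p = 0.005). At the younger ages the means of Egr3 were 35.4 at P18 and 12.1 at P75, and those of Nr4a3 were 9.96 and 2.03. Nr4a2 changed by -0.47 ± 0.10 (SE, limma adjusted p = 0.0043).

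The 24-month libraries differed among themselves in these genes. Arc, a regulator of synaptic receptors, held 1281, 2341 and 3839.6 against 3739, 4782 and 4146 at 6 months, so that R3 reached the younger range, and its call (-0.90 ± 0.37 (SE, limma adjusted p = 0.093)) was lost when any library other than 24 months R3 was left out (adjusted p up to 0.391). Fos was not called (-0.64 ± 0.31 (SE, limma adjusted p = 0.15)), with R3 again the highest of its age. Fos was called lower without 24 months R3, with a replicate block, and with only the libraries of 6 and 24 months. Without 24 months R3 the list had 12 members called lower, and without 6 months R2, 24 months R1 or 24 months R2 it had 4. The calls of Egr1 (-0.47 ± 0.17 (SE, limma adjusted p = 0.054)) and Fosb (-0.62 ± 0.20 (SE, limma adjusted p = 0.042)) were lost without those same 3 libraries, that of Egr1 also without 6 months R3 and that of Fosb without 6 months R1, with adjusted p up to 0.237 and 0.143.

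Neuronal genes were called lower in 6 of 25 tested and higher in 1, the glutamate transporter Slc17a6 (0.37 ± 0.10 (SE, limma adjusted p = 0.02)). These were 24% lower and 4% higher, against 12.7% and 16.6% over all genes. The count called lower was 2 without 6 months R1, 24 months R1 or 24 months R2 and 3 without 6 months R2. Snap25, a protein of synaptic vesicle release, gave 0.05 ± 0.17 (SE, limma adjusted p = 0.86) and Syt1, the calcium sensor of release, -0.30 ± 0.13 (SE, limma adjusted p = 0.12), neither called. Camk2a, a kinase of excitatory synapses, was called lower at -0.45 ± 0.16 (SE, limma adjusted p = 0.06), and every left-out library other than 6 months R3 ended the call (adjusted p up to 0.167). Neuropeptide genes were called higher in 18 of 26 and lower in 0, with a median of 0.52. Vip, a peptide of interneurons, held 787, 707 and 889 at 6 months and 1287, 1463 and 1383 at 24 months. Avp, vasopressin, held 205, 158 and 241 at 6 months and 492, 348 and 375 at 24 months. Agrp, a hypothalamic feeding peptide, held 15.4, 13.3 and 9.73 at 6 months and 43.6, 36.8 and 28.7 at 24 months. The 2 ages did not overlap in any of them. Removal of the length trend left 4 neuropeptide genes called higher, with Vip at 0.51 (limma adjusted p = 0.028), Avp at 0.73, Agrp at 1.07 and the stress peptide gene Crh at 0.55, while Sst (0.24) and Npy (0.14) were not called. The deposited values gave 0.62 ± 0.21 (SE, limma adjusted p = 0.053) for Sst and 0.53 ± 0.18 (SE, limma adjusted p = 0.049) for Npy, and both calls were lost without 6 months R1 or 24 months R3, that of Sst also without 6 months R2 and that of Npy without 24 months R2 (adjusted p up to 0.167 and 0.163). The median exon length of the list was 861 bases, against 3746 over all tested genes. The list counted 8 risers without 6 months R2 or 24 months R3, 10 without 6 months R1, 11 without 24 months R2 and at most 13 with any library left out.

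Regional genes were called in both directions. Of 26 hindbrain and cerebellar genes 6 were called higher and 1, Zic1 (-0.27, lost without 6 months R1, 24 months R1 or 24 months R2, adjusted p up to 0.157), lower, and 4 of the risers were Hox genes, which mark the brain stem. These shares were 23.1% and 3.85%, against 16.6% and 12.7% over all genes. The mean of the summed counts changed by -2.8%. Of 19 forebrain genes 1 was called in each direction, and their summed counts changed by -0.65%. Hoxa4 held 18.7, 21.3 and 19.5 at 6 months and 43.6, 38.9 and 53.7 at 24 months. Hoxb2 held 13, 16.9 and 21.4 at 6 months and 40.6, 30.3 and 32.4 at 24 months, and the P75 means of the pair were 47.8 and 57.9. Their changes were 1.15 ± 0.44 (SE, limma adjusted p = 0.078) and 0.99 ± 0.29 (SE, limma adjusted p = 0.029), and those of Hoxb4 and Hoxb3 were 1.37 ± 0.50 and 0.65 ± 0.26. All 4 calls were lost without 6 months R1 or 24 months R1, that of Hoxa4 with any 1 library left out, that of Hoxb4 also without 6 months R3 or 24 months R2, and that of Hoxb3 with any library but 24 months R3 left out (adjusted p up to 0.184, 0.124, 0.228 and 0.244 over the left-out libraries). The hindbrain list had 1 riser without 6 months R1, 24 months R1 or 24 months R2, 2 without 6 months R3 and 3 without 6 months R2 or without the length trend. The part of dissection in this and the other groups was not tested.

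The protocadherin clusters moved in opposite directions. These genes encode adhesion molecules that give single neurons a surface identity, and each beta gene is 1 exon while gamma genes join a variable exon to shared ones, so that reads on shared exons cannot be assigned. Of 19 tested beta genes 12 were called higher and 0 lower (median 0.69), and of 19 gamma genes 13 were called lower and 0 higher (median -1.15). Of the gamma genes 7 passed the filter only with the 6-month libraries, 3 of them called lower, and 10 of the other 12 were called lower. Pcdhb9 held 368, 349 and 338 at 6 months and 821, 849 and 789 at 24 months, a rise of 1.22 ± 0.11 (SE, limma adjusted p = 2.7e-05). Pcdhb3 held 161, 123 and 143 at 6 months and 331, 312 and 369 at 24 months, a rise of 1.24 ± 0.16 (SE, limma adjusted p = 0.00026). In the other direction, Pcdhgc3 held 524, 382 and 351 at 6 months and 158, 187 and 207 at 24 months, a change of -1.17 ± 0.17 (SE, limma adjusted p = 0.00061). Pcdhgc5 held 234, 154 and 179 at 6 months and 33.7, 56.2 and 94.4 at 24 months, a change of -1.71 ± 0.43 (SE, limma adjusted p = 0.014). Pcdhac2, the tested alpha gene, fell from 109.7, 60.4 and 48.7 to 18.8, 22.7 and 22.2.

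Across the ages the clusters also differed. Mean counts of Pcdhb9 were 108 at P18 and 249 at P75, below both later ages. Those of Pcdhgc5 were 24.5 and 16.5, so its 6-month libraries stood above all other ages. The beta count lay between 10 and 12 with each library left out and was 12 without the length trend. The gamma count fell to 6 without 6 months R1 and was 9 to 12 otherwise. The gamma members counted include the 7 that passed the filter only with the 6-month libraries.

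**Figure D4:**
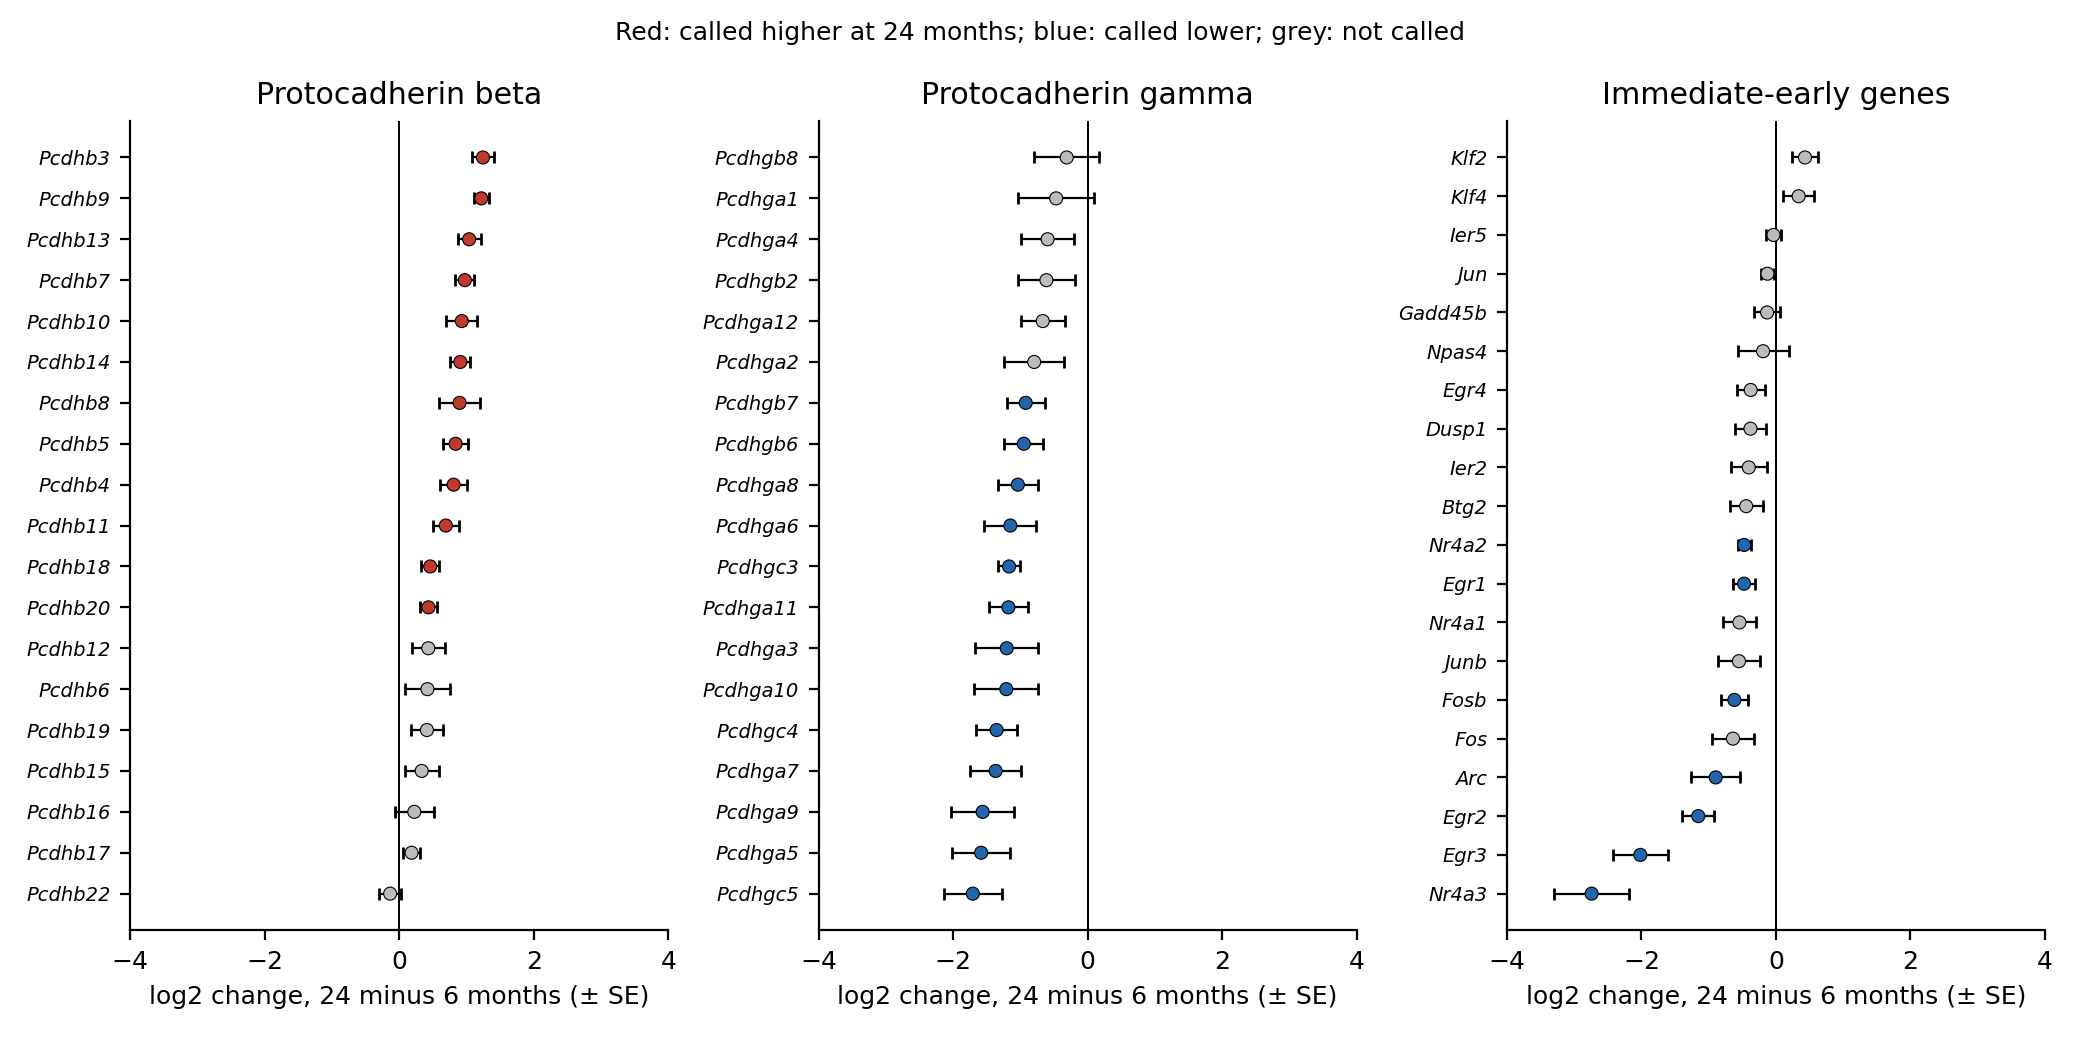
Log2 change from 6 to 24 months with its standard error for each tested protocadherin beta gene, protocadherin gamma gene and immediate-early gene, with red for called higher, blue for called lower and grey for not called. Beta genes reach 1.24 upward, gamma genes -1.71 downward, and immediate-early genes run from 2 uncalled members above 0, Klf2 and Klf4, down to -2.74.

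Among the larger falls outside these lists were genes whose 6-month mean was the highest of the 4 ages. Irs2, an adaptor of insulin and IGF receptors, held 184, 126 and 128 at 6 months and 31.7, 27 and 54.6 at 24 months (chr8:10986980-11008458, minus strand, mm9), a log2 change of -1.97 ± 0.34 (SE, limma adjusted p = 0.0018), with means of 31.7 at P18 and 20.6 at P75. Pnmal2 held 1824, 1279 and 1309 at 6 months and 405, 413 and 492 at 24 months and changed by -1.74 ± 0.22 (SE, limma adjusted p = 0.00023), against means of 309.9 and 146 at the younger ages. Plcb4, a phospholipase, and Clvs1, a clathrin vesicle protein, changed by -1.25 ± 0.17 and -1.40 ± 0.23. In Irs2, Pnmal2, Plcb4 and Clvs1, and in Gm3893 below, the library 6 months R1 was the highest of its age. Klhl34 and the phosphatase Dusp8 changed by -1.49 ± 0.27 and -1.27 ± 0.22. The largest fall was that of Gm3893, from 245, 233 and 218 to 10.9, 16.2 and 17.6 (-3.90 ± 0.31), a predicted gene that, like Gm7120 (-1.25 ± 0.29), may share reads with near-identical copies.

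Genes responsive to glucocorticoid hormones were called higher in 11 of 22 tested and lower in 2. Of the risers 1, Lcn2, passed the filter only through its 24-month level, and 10 of the other 21 members were called higher. Hif3a, an inhibitory hypoxia factor, held 27.6, 28.4 and 22.4 at 6 months and 110.0, 53 and 50.9 at 24 months, a log2 change of 1.33 ± 0.23 (SE, limma adjusted p = 0.002). Sult1a1, a sulfotransferase, held 161, 191 and 169 at 6 months and 504, 385 and 288 at 24 months, a log2 change of 1.14 ± 0.28 (SE, limma adjusted p = 0.012). Averaged over the libraries of the other ages, Hif3a held 116.3 and Sult1a1 547.1, above their 24-month means of 71.3 and 392.3. The metallothioneins Mt1 and Mt2, which bind zinc and copper, rose by 0.87 ± 0.18 and 0.98 ± 0.19, from means of 4634 and 2335 to 8455 and 4659. Those means were 19483 and 12402 at P75, above those of 24 months. Without the length trend the changes were 0.53 and 0.59. Plin4, which coats lipid droplets, held 83.7, 150.0 and 73 at 6 months and 556, 281 and 217 at 24 months. Its mean over the libraries of the other ages, 155.7, lay below its 24-month mean of 351.2. In Hif3a, Sult1a1, Mt1, Mt2 and Plin4 the library 24 months R1 was the highest, and without it Plin4 was no longer called (adjusted p = 0.119).

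Sgk1, a kinase induced by these hormones, held 6304, 4164 and 2113 at 24 months against 2027, 2391 and 2482 at 6 months, and its call (0.73 ± 0.27 (SE, limma adjusted p = 0.062)) was lost without 6 months R1, 6 months R2, 24 months R1 or 24 months R2 (adjusted p up to 0.3). Tsc22d3, a leucine zipper mediator of the hormone, was called at 0.36 ± 0.10 (SE, limma adjusted p = 0.021) with every library left out, and Fkbp5, a chaperone of the receptor, lost its call (0.39 ± 0.16 (SE, limma adjusted p = 0.096)) with any library left out (adjusted p up to 0.32). Over the libraries of the other ages Tsc22d3 averaged 4711 and Fkbp5 873, above their 24-month means of 2771.5 and 629.4. Sgk1 averaged 3687 there, below its 24-month mean of 4193.5. The 2 members called lower were the mineralocorticoid receptor Nr3c2 (-0.88 ± 0.15 (SE, limma adjusted p = 0.002)) and Klf9 (-0.75 ± 0.16 (SE, limma adjusted p = 0.005)). Without 24 months R1 the count called higher was 6, it was 7 without 6 months R1 or 24 months R2, and otherwise it lay between 8 and 11. Library 24 months R1 thus had the highest values of several hormone-responsive genes and the lowest of Arc, Egr2 and Egr3.

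Chaperones and clock genes were called in both directions. Of 30 heat shock and chaperone genes 7 were called higher (23.3%) and 2 lower (6.67%), against 16.6% and 12.7% over all genes. Those of the endoplasmic reticulum, Pdia3 (0.54 ± 0.13 (SE, limma adjusted p = 0.0097)) and Dnajb9 (0.49 ± 0.10 (SE, limma adjusted p = 0.0034)), rose, and the small heat shock gene Hspb1 rose by 0.75 ± 0.19 (SE, limma adjusted p = 0.016). The mitochondrial chaperone Hspa9 went from 6273, 5470.4 and 5315 to 4124, 3989.7 and 4158, a change of -0.47 ± 0.09 (SE, limma adjusted p = 0.0024), and Hspd1 was called at -0.27 but not without 6 months R1, 6 months R2, 24 months R1 or 24 months R2 (adjusted p up to 0.256). Without 24 months R1, 15 members were called higher. Of 21 clock genes 1 was called higher (4.76%) and 4 lower (19%), against 16.6% and 12.7% over all genes. The repressor Cry2 held 1780.0, 1731 and 1824 at 6 months and 1445, 1315 and 1394 at 24 months, a change of -0.36 ± 0.08 (SE, limma adjusted p = 0.0054). The kinase Csnk1d held 2137, 2101 and 2118 at 6 months and 1553, 1693 and 1706 at 24 months, a change of -0.36 ± 0.08 (SE, limma adjusted p = 0.0064), and the ages were apart in both. The calls of Bhlhe40 (-0.30), Tef (-0.22) and Per3 (0.38) were lost without 24 months R1. Other libraries that ended them were 6 months R2 for Bhlhe40, 6 months R1, 6 months R2 and 24 months R2 for Tef, and 6 months R1 for Per3 (adjusted p up to 0.123, 0.144 and 0.129).

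Lysosomal genes were called higher in 22 of 46 tested and lower in 0, with a median of 0.27. Ctsd, an aspartic protease of lysosomes, rose by 0.48 ± 0.11 (SE, limma adjusted p = 0.0077), from 9849, 9209.9 and 8774 to 11663, 12232 and 15294. The list shares genes, Cd68 and Ctss among them, with the microglial lists, and its count was 22 after removal of the length trend and 15 to 20 with a library left out. The cell cycle inhibitor Cdkn1a, a marker of senescence, was not called (-0.15 ± 0.16 (SE, limma adjusted p = 0.53)), and Cdkn2a, at 1.08 to 9.26 at 24 months, was too low to test. Of 21 tested genes of senescence and the p53 response 2 were called in each direction, 9.52% each way, below the 16.6% and 12.7% of all genes. Igfbp7, a secreted growth factor binder, rose by 0.76 ± 0.12 (SE, limma adjusted p = 0.0014) and Sesn2, a stress sensor, went from 169.8, 153 and 149.9 to 83.2, 83.2 and 88.9, a change of -0.88 ± 0.17 (SE, limma adjusted p = 0.004). The other calls, Bax at 0.25 and Cdkn2d at -0.53, were lost without 6 months R1, 24 months R1, 24 months R2 or 24 months R3 for Bax and with any library but 24 months R3 left out for Cdkn2d (adjusted p up to 0.267 and 0.274).

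Basement membrane collagens were among 9 of 28 fibroblast and collagen genes called higher, with 1, the proteoglycan Bgn (-0.35), lower. These were 32.1% and 3.57%, against 16.6% and 12.7% over all genes. The Bgn call was lost without 6 months R1, 6 months R2, 24 months R1 or 24 months R3 (adjusted p up to 0.328). Col4a1 rose by 0.62 ± 0.17 (SE, limma adjusted p = 0.019), Col4a2 by 0.66 ± 0.17 (SE, limma adjusted p = 0.017) and Col6a1 by 0.96 ± 0.33 (SE, limma adjusted p = 0.049). Col6a1 went from 494, 474 and 545 to 1009, 1049.9 and 889, but its call was lost without 6 months R1, 6 months R2, 24 months R1 or 24 months R2 (adjusted p up to 0.133). Ttr, the thyroid hormone carrier made by choroid plexus, rose by 0.63 ± 0.12 (SE, limma adjusted p = 0.0034). Of 14 choroid plexus genes 2 were called higher, Ttr and Prlr (0.38). This was 14.3%, near the 16.6% called higher over all genes. Of 12 ependymal genes 0 were called higher. The Prlr call was lost without 6 months R2, 6 months R3, 24 months R2 or 24 months R3 (adjusted p up to 0.319). The collagen count was 4 without 6 months R2 and 5 without 6 months R1 or 24 months R2.

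Vascular genes gave few calls in the cell type lists and more in that of vascular inflammation. Of 18 endothelial genes 4 were called higher and 0 lower, and of 13 mural cell genes 1 in each direction. These were 22.2% higher for endothelial genes and 7.69% each way for mural genes, against 16.6% and 12.7% over all genes. Of 9 tested genes of adhesion and vascular inflammation 6 were called higher and 0 lower, 2 without 24 months R2 and 4 without 6 months R1 or without the length trend. One of them, Lcn2, passed the filter through its 24-month level alone, and 5 of the other 8 members were called higher. Vwf, the von Willebrand factor of endothelium, held 102, 90.5 and 97.3 at 6 months and 152, 176 and 127 at 24 months, a change of 0.64 ± 0.19 (SE, limma adjusted p = 0.026). Ly6c1 held 83.7, 74.6 and 78.8 at 6 months and 108, 149 and 106 at 24 months, a change of 0.59 ± 0.17 (SE, limma adjusted p = 0.025). Both calls were lost without 24 months R2 (adjusted p = 0.121 and 0.13), and that of Ly6c1 without the length trend (limma adjusted p = 0.3). The glucose transporter Slc2a1 was called at 0.33 ± 0.10 (SE, limma adjusted p = 0.036) but not without 24 months R3, and the adhesion gene Esam at 0.39 ± 0.16 (SE, limma adjusted p = 0.098) but not with any 1 library left out (adjusted p up to 0.108 and 0.237). Among mural genes Rgs5, a pericyte regulator of G protein signals, went from 71.5, 66.6 and 51.6 to 29.7, 35.7 and 40.7, a change of -0.82 ± 0.22 (SE, limma adjusted p = 0.017), while the channel gene Kcnj8 changed by 0.85 ± 0.26 (SE, limma adjusted p = 0.029) and lost its call without 24 months R2 (adjusted p = 0.12). Icam1, an adhesion molecule that leukocytes bind, held 35.8, 40.8 and 48.7 at 6 months and 92.1, 83.2 and 78.7 at 24 months and rose by 1.01 ± 0.28 (SE, limma adjusted p = 0.02). The endothelial count was 1 without 24 months R2 and 2 without 24 months R3, with libraries scaled to the same total or without the length trend.

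Several long non-coding RNAs rose. Of 16 listed non-coding and imprinted genes 9 were called higher and 1, Peg13 (-0.50), lower. Neat1, the scaffold of nuclear paraspeckles, held 843, 899 and 981 at 6 months and 2605, 2477 and 1749 at 24 months, a log2 change of 1.31 ± 0.16 (SE, limma adjusted p = 0.00022), although its mean of 1871 at P75 was close to that at 24 months. Snhg11, a host gene of small nucleolar RNAs, held 9098, 7907 and 10544 at 6 months and 19748, 19758 and 17528 at 24 months and rose by 1.06 ± 0.17 (SE, limma adjusted p = 0.0012). Mirg, in the imprinted Dlk1-Dio3 region, rose by 1.10 ± 0.13 (SE, limma adjusted p = 0.00016) and its neighbour Meg3 by 0.49 ± 0.16 (SE, limma adjusted p = 0.045), where the Meg3 call was lost without 6 months R2, 24 months R2 or 24 months R3 (adjusted p up to 0.183).

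Ribosomal protein genes were called higher in 43 of 81 tested and lower in 0, with a median of 0.42, and nuclear genes of the respiratory chain in 43 of 70, with 2, Atp5a1 (-0.29) and Ndufs1 (-0.24), lower. Rps12 held 13435, 21554 and 23284 at 6 months and 35942, 29368 and 24883 at 24 months, a log2 change of 0.65 ± 0.22 (SE, limma adjusted p = 0.048). Cox6c, a subunit of complex IV, held 8139, 11152 and 12917 at 6 months and 19560.5, 17116 and 14090.4 at 24 months, a log2 change of 0.67 ± 0.16 (SE, limma adjusted p = 0.012). In both genes the library 6 months R1 was the lowest and 24 months R1 the highest. Without 6 months R1 the ribosomal count fell to 2, without 24 months R1 to 3 and without 24 months R2 to 9, and the respiratory count to 16, 27 and 32. The call of Atp5a1 was lost with any library but 6 months R3 left out and that of Ndufs1 without 6 months R1, 6 months R2, 24 months R2 or 24 months R3 (adjusted p up to 0.138 and 0.139). The Rps12 call was lost without any of these 3 (adjusted p up to 0.234). These are short genes, with median exon lengths of 1481 and 1240 bases, and with the length trend removed 10 of 80 ribosomal and 10 of 70 respiratory genes were called higher, with 1 and 9 lower. Rpl35a kept its call (0.64, limma adjusted p = 0.021) and Rps12 did not (0.26, limma adjusted p = 0.36). The longer proteasome genes Psmd11 and Psmd1 changed by -0.54 ± 0.09 (SE, limma adjusted p = 0.0012) and -0.44 ± 0.10 (SE, limma adjusted p = 0.0074), among 6 of 34 proteasome genes called lower and 0 higher, or 3 lower without 6 months R1 or 24 months R2 and 11 lower without the length trend. The 6 were 17.6% of the list, against 12.7% called lower over all genes.

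**Figure D5:**
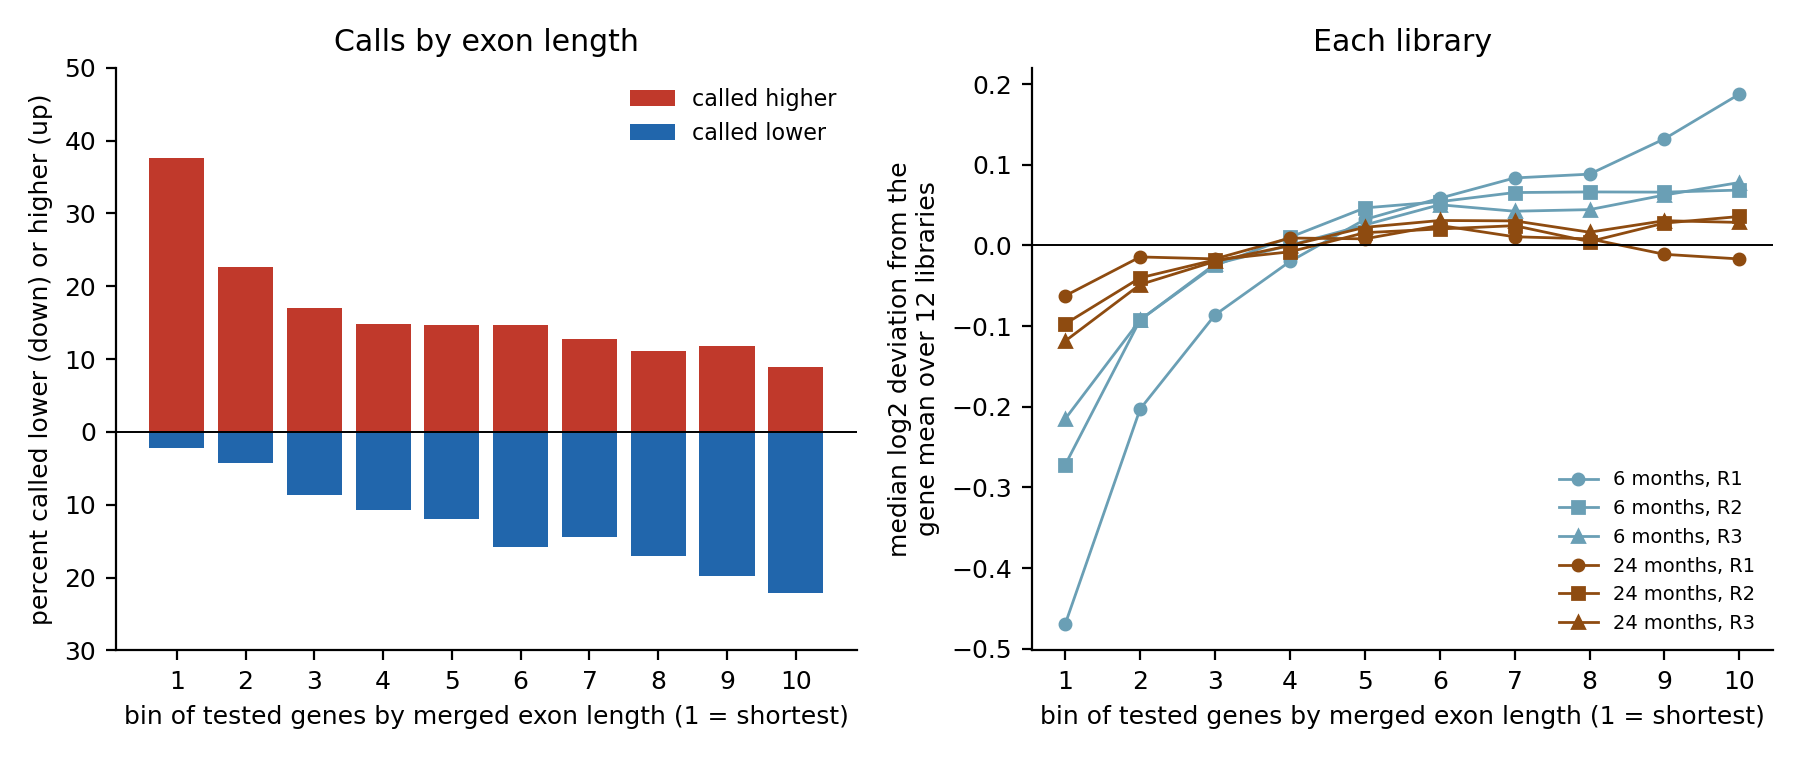
Left, percent of tested genes called higher (up) and lower (down) in each of 10 equal bins by merged exon length, from the shortest, up to 1486 bases, to the longest, from 8213 bases. Right, the median log2 deviation of each bin from the gene means over 12 libraries, 1 line for each library of 6 and 24 months. Library 6 months R1 is the lowest in the shortest bin and the highest in the longest.

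Genes with the most reads changed modestly. By normalized count, not adjusted for length, the abundant genes called higher without overlap included Nptn, an adhesion protein of synapses, at 0.57 ± 0.13 (SE, limma adjusted p = 0.0069) and Itm2b, an integral membrane protein linked to amyloid, at 0.44 ± 0.11 (SE, limma adjusted p = 0.012). Itm2b was no longer called with the length trend removed (limma adjusted p = 0.11). Abundant genes called lower included Spna2, the alpha chain of brain spectrin, at -0.45 ± 0.12 (SE, limma adjusted p = 0.019) and the tubulin Tubb4 at -0.48 ± 0.14 (SE, limma adjusted p = 0.026), whose call was lost without 24 months R2 (adjusted p = 0.101). Further rises over 2-fold were those of the amylase Amy1 (1.48 ± 0.20), Ovgp1 (1.43 ± 0.21), 4930447C04Rik (1.37 ± 0.16), the protease inhibitor homologue Ctla2a (1.30 ± 0.17) and the innate receptor Tlr2 (1.36 ± 0.26). Amy1, Ovgp1 and 4930447C04Rik had P75 means of 546, 139 and 137, at or near their 24-month means of 415, 117 and 146, whereas Tlr2 had 42.4 against 101.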

How the data were processed

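RNA-seq of total RNA from the myelin-enriched fraction was available as 1 table of 12 libraries, 3 at each of P18, P75, 6 months and 24 months, grouped by the labels. Per the methods and the submitters' processing notes, the authors aligned Illumina reads to mm9 with TopHat2 (version 2.0.8 in the processing notes), counted them on genes with HTSeq 0.5.4p1 and divided each library's counts by a DESeq size factor. The annotation was not given in the sources used here. The deposited values are thus a signal, normalized read counts that are neither log-transformed nor corrected for gene length. At least 99.99% of values in each library were whole multiples of the value of 1 read (tolerance 0.05 reads), which gave the reads on genes of each library (20299052 to 27214385 over the 12). In 3 libraries that value lay so near 1 that an automatic check could not be applied, so count tests were used as alternatives only.

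Genes averaging 10 or more across the 12 libraries were tested on log2(value + 1), which understates changes of low genes. limma 3.58.1 (trended empirical Bayes, R 4.3.3) was fitted to all 12 libraries with age as the only term, the contrast was 24 minus 6 months, and p-values were adjusted by Benjamini-Hochberg over all tested genes. Calls used an adjusted p under 0.1 and, where stated, a change over 2-fold. With 3 libraries against 3, an exact two-sided permutation test of a single gene cannot go below p = 0.1, so no such test was used. The fit was tested on simulated data with known changes.

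The members and lists were chosen with earlier results of these data known. Named genes were the 15 largest rises and 10 largest falls among called, non-overlapping genes with a change over 2-fold and a mean over 100 at either age, the first 3 entries of each list with its largest called changes (up to 6), the 8 most abundant called and non-overlapping genes in each direction, and genes the study names. Klf9, Tyrobp, Trem2, Gpnmb, Spp1, Axl, Csf1r, C1qb, C1qc, Masp1, Isg15, Bst2, Rsad2, Irgm1, Tnc, Mog, Mag, Nr4a2, Pcdhgc3, Mef2c, Adar, Znfx1, Cd9, Bgn, Peg13, Ndufs1, Cd84, Hspd1, Acsbg1, Zic1, Omg, Tm7sf2, Klf2, Klf4, Lilrb3, Lilrb4, Cd7, Lck, Derl3, Igj and the untested low genes were named after their values were seen.

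Alternatives changed the pseudocount, filter, scaling (same total, quantile, TMM), libraries, threshold, replicate block and test (edgeR 4.0.16, DESeq2 1.42.0). Removal of each library's trend on merged exon length and GC content (98.5% of tested genes, GENCODE models of the same build) was added after seeing the data. Promoters came from RefSeq on another build, and coordinates there are of that build. Reads from near-identical or overlapping genes cannot be told apart, and strand use in counting was not given in the sources used here. Some genes are not reported here.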

Additional observations from a re-analysis of the deposited data

How the results depend on the processing

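With each library left out in turn, 2478 to 3863 genes were called changed, 1394 to 2194 of them higher and 1024 to 1685 lower, with 192 to 299 over 2-fold, 153 to 212 higher and 38 to 90 lower. The total was 2478 without 6 months R1, 2492 without 24 months R2, 2763 without 6 months R2 and 2821 without 24 months R1. At a false discovery rate of 0.05 there were 2856 calls, 1607 of them higher. Scaling to the same total left 1394 calls higher. Changes over 2-fold numbered 119 (75 higher, 44 lower) with a pseudocount of 10, 455 (349 and 106) with no filter and 49 (30 and 19) among genes with a mean of at least 100, where low genes are shrunk, added or dropped by construction. Quantile normalization gave 114 higher and 119 lower over 2-fold, and removal of the length and GC trend 118 higher, where the cause was not tested. On recovered reads edgeR called 2772 genes higher and 1813 lower, and DESeq2 2525 and 1829. Under the other settings the counts over all genes were within 1.5 times those reported. Counts of single lists moved more: with only the libraries of 6 and 24 months in the fit, 13 myelin, 10 neuronal, 13 immediate-early and 8 clock genes were called lower, and 11 hindbrain and 12 chaperone genes higher. Of 200 called genes named above, 125 were called under every alternative tested for them, the rate of 0.05 included, and 147 under every one other than a left-out library, and 0 changed sign. Without the length and GC trend, calls of Timp1, Hoxa4, Hoxb3, H2-Eb1, H2-DMb1, Znfx1, Esam, Tef, Bax, Ebp, Ntsr2, Agt, Cd7 and Igj were also lost. Low read numbers limit the genes near the filter.

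Replicate numbers are shared across ages, but libraries of the same number did not deviate together (r across genes = -0.213, -0.0696 and -0.0603 for R1, R2 and R3), so the numbers were not taken to pair the libraries. With a replicate block 2279 genes were called higher and 1717 lower, 177 and 67 of them over 2-fold, and with the length and GC trend removed as well 1679 and 2200.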
